A study of Mus musculus with 6 samples.

Results

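Metalloproteinases of the matrix and of the cell surface, and the tissue inhibitors that hold them in check, were followed in endothelial cells sorted from mouse liver after 1 month on a control diet or on a diet with 1200 ppm PLX5622. The set held every gene of the expression table whose symbol begins with Mmp, Adam, Adamts, Adamtsl or Timp and a digit, 85 of 26264 genes. They comprised 23 matrix metalloproteinase (MMP), 34 ADAM, 19 ADAMTS, 5 ADAMTS-like (ADAMTSL) and 4 TIMP genes. Membership was set by symbol alone. C57BL6 mice supplied 3 biological replicates per diet, and the labels name no genetic change, age or sex. PLX5622 is an oral inhibitor of the kinase of CSF1R, the receptor on which most tissue macrophages depend. CD31-positive cells of 1 liver lobe were collected by fluorescence-activated sorting, so the libraries describe a mixture of sinusoidal and vessel endothelium with whatever other cells passed the gate. The stated question of the series was about cholesterol metabolism, and the proteases are a further readout of the same libraries.

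MMPs and ADAMTS proteases cut collagens, proteoglycans and other matrix proteins, while ADAM proteases release the outer parts of membrane proteins such as Notch receptors, cytokines and adhesion molecules. The active enzymes among them use a zinc ion for catalysis, while some ADAM members, such as Adam11 and Adam23, have no catalytic activity. TIMPs block the active site of the enzymes, and TIMP3, which binds to the matrix, also inhibits several ADAM and ADAMTS proteases. In the liver, sinusoidal endothelial cells rest on a sparse matrix in the space of Disse, and its turnover is shared among endothelial cells, stellate cells and macrophages.

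Levels are given in TPM (transcripts per 1000000, a share of transcripts corrected for gene length), so genes can be compared within a library. Reads recovered for the 15097 genes of the authors' deposited comparison came to between 14517959 and 32732212 per library. Libraries of one diet differed by more than sampling noise, with a chi-square per degree of freedom of at least 15.96 between any 2 of them. The 10 pan-endothelial markers, Pecam1 and Cdh5 among them, summed to between 12371 and 13309 TPM over the 6 libraries. The 11 sinusoidal markers, among them Stab2, Lyve1 and Clec4g, were all detected. They summed to 7430.0 and 7971 TPM in control replicate 1 and PLX5622 replicate 1, and to between 11679 and 14796 TPM in the other libraries. In bulk RNA of this kind, fewer cells of a type and less RNA per cell cannot be told apart.

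Of the 85 genes, 35 reached 1 TPM on average across the libraries and were tested. Another 28 were above 0 in at least 1 library but below that mean, and 22 were listed at 0 in every library. The latter included 16 ADAM genes, among them Adam2, Adam3 and Adam18 of the sperm surface, and 5 MMP genes, among them Mmp8, the collagenase of neutrophils, and Mmp20, the protease of tooth enamel. Among the tested genes 8 stood at a mean of 100 TPM or more and 19 at 10 TPM or more. A pair of genes, the inhibitor Timp3 and the protease Adamts1, held 59.3 ± 2.21% of the summed TPM of the whole set on the control diet and 62.1 ± 3.07% on PLX5622 (n = 3 per diet, SD).

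**Figure D1:**
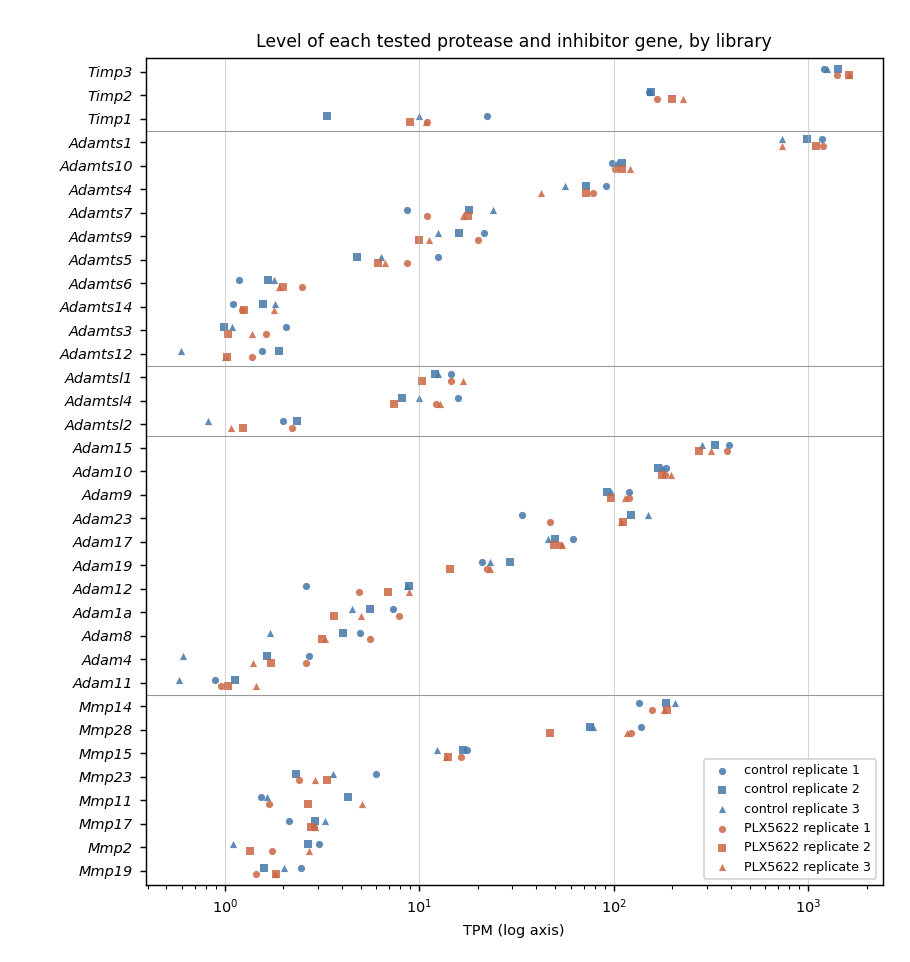
Level of the 35 tested genes in TPM on a log axis, 1 row per gene and 1 symbol per library, with control libraries in blue and PLX5622 libraries in orange, grouped by family and ordered by mean. Timp3 and Adamts1 stand above 700 TPM in every library, and symbols of the diets lie among each other in nearly all rows.

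The inhibitors were led by Timp3. It stood at 1205, 1424 and 1249 TPM in control replicates 1 to 3 and at 1413, 1614 and 1624 TPM in PLX5622 replicates 1 to 3. Control replicate 2 lay above PLX5622 replicate 1, so the diets overlapped by 1 library. The log2 fold change of PLX5622 over control was 0.26 (95% interval 0.01 to 0.52, on the log2(TPM + 1) scale, as for all fold changes here unless another source is named). Timp2, which besides its inhibitory role takes part in the activation of pro-MMP2 by MMP14 at the cell surface, stood at 152, 156 and 154 TPM on the control diet and at 166, 199 and 228 TPM on PLX5622. Each PLX5622 library lay above each control library. Its log2 fold change was 0.35 (95% interval 0.07 to 0.63).

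Timp2 and Timp3 were the only members of the set with an unadjusted p under 0.05 in the limma fit, at 0.0205 and 0.0463, and neither passed after adjustment over all genes (adjusted p = 0.99998 by limma for both). Of the 35 tested genes, 0 passed at an adjusted p under 0.05, against 0% of all 13739 tested genes (0 genes). At an unadjusted p under 0.05 the count was 2 of 35, where 3.34% of all tested genes, 459 in number, had such a p. In the authors' deposited table, made with DESeq2, 0 of the 48 members present have an adjusted p under 0.05, where 0.0729% of its 15097 genes do. In that deposited table by the authors, 2 members have an unadjusted p under 0.05, where 3.18% of all genes do. In the authors' deposited table these 2 are Timp2, at a log2 fold change of 0.37 (SE 0.142, p = 0.00831 by DESeq2) and Timp3, at 0.28 (SE 0.127, p = 0.0303 by DESeq2). Both tables come from the same libraries. The unadjusted p of Timp3 was above 0.05 by limma without control replicate 1, without control replicate 3, without PLX5622 replicate 2 and without PLX5622 replicate 3, and reached 0.136. It was also above 0.05 with no filter on low values (0.0778), without the intensity trend (0.0742) and after quantile normalization (0.0541). That of Timp2 was above 0.05 without control replicate 3 (0.0520), without PLX5622 replicate 2 (0.0561) and without PLX5622 replicate 3 (0.0671).

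The remaining inhibitors were scarce. Timp1, the inhibitor that rises in injured and fibrotic liver, stood at 22.3, 3.34 and 10.01 TPM on the control diet and at 10.97, 8.97 and 10.8 TPM on PLX5622. Its control libraries alone spanned 6.68-fold, and the PLX5622 libraries lay between them. Its log2 fold change was 0.11 (95% interval -1.13 to 1.36), whereas the authors' deposited table gives -0.21 (SE 0.581), so no direction can be given. Timp4 had 2, 0 and 8 reads on the control diet and 11, 9 and 34 reads on PLX5622. In TPM these were 0.0700, 0 and 0.538 against 0.480, 0.509 and 1.61, which overlapped between diets and fell below the filter. The authors' deposited table gives Timp4 a log2 fold change of 2.23 (SE 1.25, p = 0.0733 by DESeq2). Timp1, Timp3 and Timp4 each lie inside a synapsin gene on the opposite strand (Syn1, Syn3 and Syn2), and the libraries do not mark strand. Syn3 had at most 1.64 TPM and Syn1 at most 1.56 TPM, but Syn2, at 2.13 to 4.65 TPM, stood above Timp4 in mean level, so the reads of Timp4 are uncertain.

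**Figure D2:**
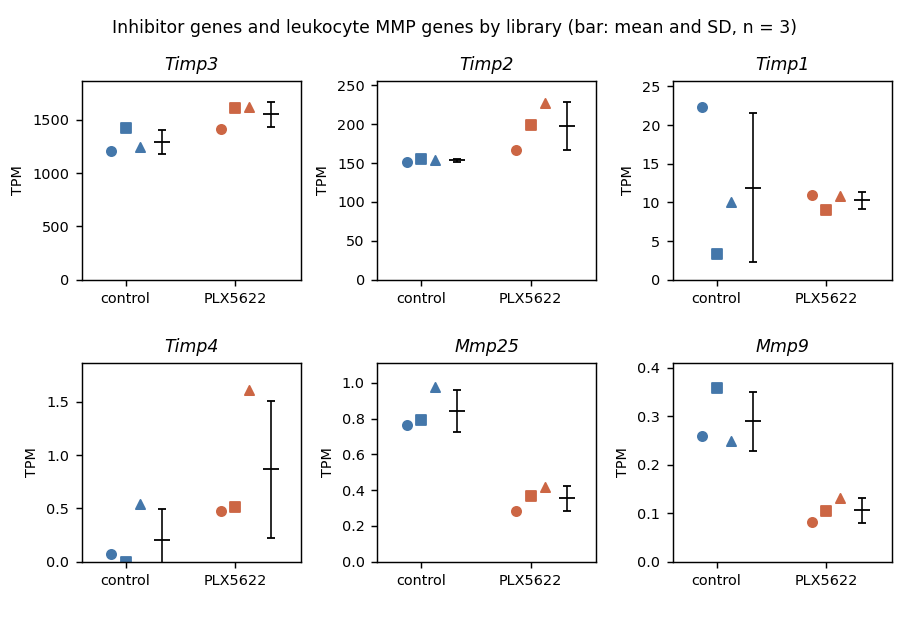
TPM of the 4 inhibitor genes and of Mmp25 and Mmp9 in each library, control in blue and PLX5622 in orange, with symbols for replicates and a bar for the mean and SD (n = 3 each). The axes start at 0, where the SD bar of Timp4 on the control diet is cut off. Timp2 is higher in every PLX5622 library than in any control library, Mmp25 and Mmp9 are lower in every PLX5622 library, and the other inhibitors overlap.

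The sequences just before the starts of Timp2 and Timp3, the 2 members with the smallest p, and of Adamts1, the most abundant protease, are shown so that their composition can be compared. Each is the 250 bases before the start from RefSeq (GRCm38.p6, not the mm39 build of the expression data), on the strand of the gene, with capitals on the motifs found. The windows are chr11:118355412-118355661 on the minus strand for Timp2, chr10:86300162-86300411 on the plus strand for Timp3 and chr16:85803114-85803363 on the minus strand for Adamts1.
Timp2: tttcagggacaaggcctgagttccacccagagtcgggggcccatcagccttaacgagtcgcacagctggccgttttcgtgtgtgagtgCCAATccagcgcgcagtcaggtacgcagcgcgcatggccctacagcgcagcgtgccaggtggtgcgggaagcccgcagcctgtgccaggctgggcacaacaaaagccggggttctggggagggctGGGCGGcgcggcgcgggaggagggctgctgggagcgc
Timp3: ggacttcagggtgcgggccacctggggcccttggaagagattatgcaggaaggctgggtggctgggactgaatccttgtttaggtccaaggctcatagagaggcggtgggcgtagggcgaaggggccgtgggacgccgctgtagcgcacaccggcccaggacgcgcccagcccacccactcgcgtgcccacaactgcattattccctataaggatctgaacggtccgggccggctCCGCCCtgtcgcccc
Adamts1: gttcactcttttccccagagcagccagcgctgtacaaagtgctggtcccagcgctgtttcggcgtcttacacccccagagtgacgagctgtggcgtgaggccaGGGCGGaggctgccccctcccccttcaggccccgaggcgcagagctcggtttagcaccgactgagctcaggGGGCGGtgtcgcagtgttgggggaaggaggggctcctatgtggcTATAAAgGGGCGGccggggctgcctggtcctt
The motifs searched on both strands were GGGCGG (the GC box), CCAAT (the CAAT box), TATAAA (the TATA motif), CCGGAA (an ETS core) and TGANTCA (the AP-1 motif), and no match overlapped another. GC boxes numbered 1 for Timp2, 1 for Timp3 and 3 for Adamts1, and 32.7% of 32841 promoter windows of this length hold at least 1. CCAAT occurred once, in Timp2 (33.9% of windows hold it), and TATAAA once, in Adamts1 (12.4% of windows). The ETS core and the AP-1 motif were in none of the 3 windows, and 12.03% and 6.75% of all windows hold them. The GC content was 68.0% for Timp2, 65.6% for Timp3 and 65.6% for Adamts1, against a median of 52.4% over all windows. These matches describe the sequence and say nothing about factors bound there.

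Among the ADAMTS proteases, Adamts1 held 80.7 ± 2.63% of the family's summed TPM on the control diet and 81.6 ± 3.24% on PLX5622 (n = 3 per diet, SD). ADAMTS1 cleaves the proteoglycans versican and aggrecan and is known as an inhibitor of angiogenesis. It stood at 1180.4, 979.9 and 737 TPM on the control diet and at 1189, 1092 and 733 TPM on PLX5622. Replicate 1 was the highest and replicate 3 the lowest in both diets, and the ranges nearly coincided. The log2 fold change was 0.05 (95% interval -0.47 to 0.58), which leaves room for a change between 0.720-fold and 1.49-fold.

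Adamts10, a protease of the fibrillin microfibril, varied little, at 104 ± 6.08 against 111 ± 9.65 TPM on PLX5622 (n = 3 per diet, SD), with a log2 fold change of 0.09, with -0.14 to 0.32 as its 95% interval. The aggrecanase Adamts4 stood at 72.9 ± 17.5 and 64.0 ± 19.1 TPM (n = 3 per diet, SD), with a log2 fold change of -0.21, with -0.81 to 0.40 as its 95% interval. Adamts9, a versican-cleaving protease, stood at 21.5, 16.1 and 12.5 TPM on the control diet and at 20.1, 9.97 and 11.1 TPM on PLX5622. Its log2 fold change of -0.30 (95% interval -0.97 to 0.38) was the lowest of the tested members, and the diets overlapped. Adamts6, a relative of Adamts10, stood at 1.18, 1.67 and 1.79 TPM on the control diet and at 2.5, 1.99 and 1.91 TPM on PLX5622. The diets did not overlap in Adamts6, but its log2 fold change of 0.30 had a 95% interval of -0.32 to 0.93, from 64 to 138 reads per library.

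Timp2 and Adamts6 were the 2 of 35 tested members (5.71%) whose libraries did not overlap between diets, where 8.68% of all tested genes did not overlap. Adamts13, the protease that cuts von Willebrand factor and that stellate cells are known to make, had 7, 5 and 3 reads on the control diet and 7, 2 and 14 on PLX5622. Its level was at most 0.388 TPM, below the filter. Adamts2 and Adamts15, just under the filter at a mean of 0.937 and 0.933 TPM, overlapped between diets as well.

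The ADAMTS-like proteins share the ancillary domains of ADAMTS enzymes but lack the protease. Adamtsl1 measured 12.97 ± 1.33 TPM on the control diet and 13.8 ± 3.22 TPM on PLX5622, and Adamtsl4, known from the fibrils that suspend the lens, at 11.3 ± 4.06 and 10.8 ± 2.90 TPM (n = 3 per diet, SD). Adamtsl2, which binds fibrillin and a latent TGF-beta binding protein, stood at 1.72 ± 0.800 and 1.51 ± 0.607 TPM (n = 3 per diet, SD). Adamtsl5 and Adamtsl3 had means of 0.883 and 0.143 TPM and were not tested. The log2 fold changes of the 3 tested genes lay between -0.10 and 0.07, and each diet's range overlapped the other's.

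The ADAM family was spread over more genes. Adam15, Adam10, Adam9, Adam23 and Adam17 together held 94.4 ± 0.871% of its summed TPM on the control diet and 94.8 ± 0.629% on PLX5622 (n = 3 per diet, SD). Adam15, an ADAM with an integrin-binding disintegrin domain, was the most abundant at 335 ± 54.6 and 324 ± 53.8 TPM (n = 3 per diet, SD). Adam10, the main sheddase that starts the cleavage of Notch receptors and VE-cadherin, stood at 186, 169 and 177 TPM on the control diet and at 184, 178 and 197 TPM on PLX5622. It varied least among the members, by 1.17-fold over the 6 libraries. Its log2 fold change was 0.07 (95% interval -0.13 to 0.27), which limits a change to between 0.916-fold and 1.203-fold.

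Adam17, the sheddase of tumour necrosis factor and of many receptors, stood at 61.9, 49.9 and 45.6 TPM on the control diet and at 52.9, 49.3 and 54.2 TPM on PLX5622. The PLX5622 libraries lay inside the range of the control libraries, and the interval of the fold change ran from 0.812-fold to 1.23-fold. Adam9, a widely expressed sheddase, stood at 103 ± 14.2 and 110.1 ± 12.2 TPM (n = 3 per diet, SD), with a log2 fold change of 0.10, with -0.20 to 0.40 as its 95% interval. Adam19, a protease needed for heart development in mice, stood at 21.1, 29.2 and 23.1 TPM against 22.4, 14.5 and 23.1 TPM. The lower mean on PLX5622, a log2 fold change of -0.29, with -0.78 to 0.20 as its 95% interval, came with 1 low library, and without PLX5622 replicate 2 it was -0.09. Adam11, a catalytically inactive member known from the nervous system, was near the filter at 0.867 ± 0.276 and 1.15 ± 0.262 TPM (n = 3 per diet, SD), with a log2 fold change of 0.21, with -0.51 to 0.92 as its 95% interval. Adam22 and Adam32, just below the filter at means of 0.875 and 0.692 TPM, overlapped between diets. Adam8, an ADAM of leukocytes, stood at 3.57 ± 1.67 and 3.99 ± 1.36 TPM (n = 3 per diet, SD).

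The 95% interval of the fold change lay within 0.5 on the log2 scale on either side of 0 for 7 of the 35 tested genes, Adam9, Adam10, Adam15, Adam17, Adamts10, Mmp14 and Mmp15. For these a change larger than that is outside the interval. For the other 28 genes the interval reached beyond that size on at least 1 side.

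**Figure D3:**
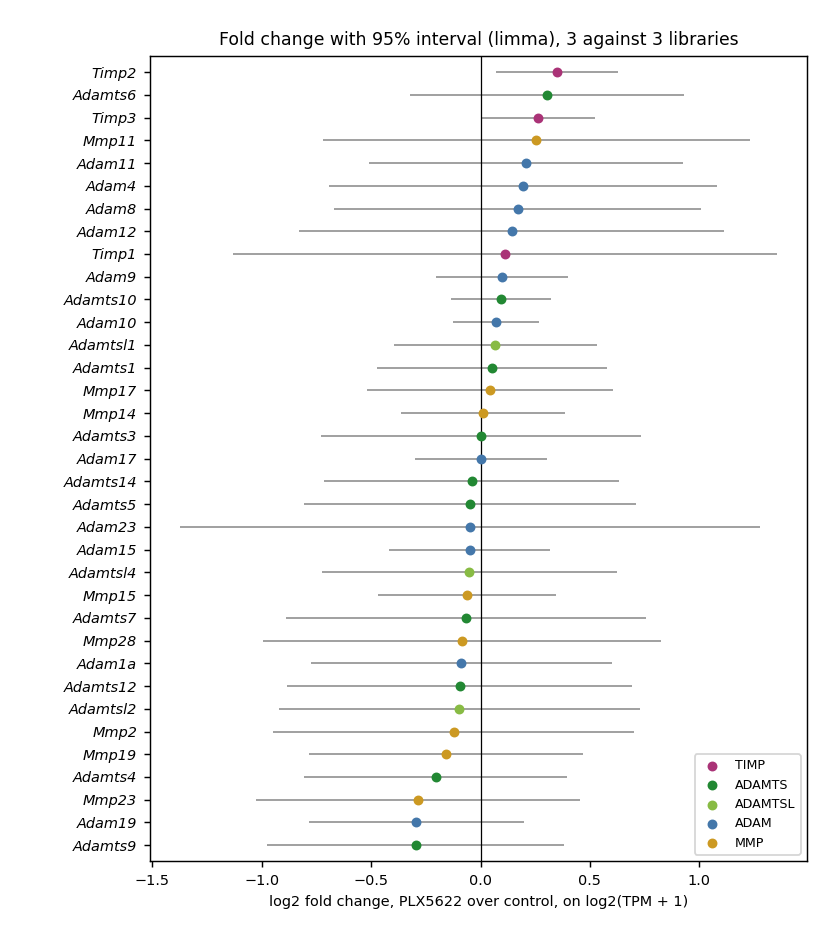
Log2 fold change of PLX5622 over control on log2(TPM + 1) for the 35 tested genes, as points coloured by family with 95% intervals of the limma fit as lines. The intervals of Timp2 and Timp3 lie above 0, and those of the other 33 include it.

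Mmp14 and Mmp28 held 89.6 ± 1.81% of the summed TPM of the MMPs on the control diet and 90.3 ± 0.763% on PLX5622 (n = 3 per diet, SD). Mmp14, the membrane-anchored collagenase MT1-MMP that activates pro-MMP2, stood at 136, 185 and 207 TPM on the control diet and at 157, 187 and 180.5 TPM on PLX5622. The log2 fold change was 0.01 (95% interval -0.36 to 0.39). Mmp28, a secreted MMP also called epilysin, stood at 138, 75.1 and 78.3 TPM against 123, 46.9 and 117 TPM. Control replicate 1 was the highest library and PLX5622 replicate 2 the lowest, a ratio of 2.94, and the means, 97.1 ± 35.4 and 95.8 ± 42.4 TPM (n = 3 per diet, SD), were close. Mmp28 overlaps a gene on the opposite strand, 1700020L24Rik, which had 30.9 to 90.2 TPM, so its reads are uncertain.

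Mmp15, another membrane-anchored MMP, stood at 15.5 ± 2.77 and 14.8 ± 1.50 TPM (n = 3 per diet, SD). The gelatinase gene Mmp2, typical of stellate cells and fibroblasts, stood at 3.05, 2.68 and 1.09 TPM on the control diet and at 1.76, 1.35 and 2.72 TPM on PLX5622, so that the log2 fold change was -0.12 (95% interval -0.95 to 0.70). Mmp11 and Mmp23 had log2 fold changes of 0.25 (95% interval -0.72 to 1.23) and -0.29 (95% interval -1.03 to 0.45) at means under 4 TPM, and Mmp19 had -0.16 (95% interval -0.78 to 0.47). Each of these overlapped between diets, and the control library of highest value was replicate 1 for Mmp2, Mmp23 and Mmp19 and replicate 2 for Mmp11.

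MMPs known from leukocytes were at the limit of detection. Mmp12 and Mmp13, proteases of macrophages and of remodelling tissue, had 0.389 and 0.270 TPM in control replicate 1. Mmp12 was otherwise listed at 0 except for 0.0376 TPM in PLX5622 replicate 3, and Mmp13 was listed at 0 in all other libraries. Mmp9, the gelatinase of neutrophils and macrophages, stood at 0.260, 0.358 and 0.249 TPM on the control diet and at 0.0809, 0.105 and 0.132 TPM on PLX5622. Mmp25, the membrane-anchored MMP also called leukolysin and known from leukocytes, had 27, 33 and 18 reads on the control diet and 8, 8 and 11 on PLX5622, which were 0.761, 0.791 and 0.975 TPM against 0.281, 0.364 and 0.420 TPM.

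Mmp25 and Mmp9 were lower in every PLX5622 library than in any control library. They were the 2 of the 28 members below the filter and above 0 without overlap, where 5.98% of all such genes did not overlap. In the limma fit with no filter, Mmp25 had an unadjusted p of 0.0126 and Mmp9 of 0.0524, with an adjusted p of 0.992 for both. In the authors' deposited table Mmp25 has a log2 fold change of -1.23 (SE 0.696, p = 0.0772 by DESeq2), and Mmp9 has no entry.

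The markers of the cells that these MMPs are known from were as follows. Of the 14 tested Kupffer markers 11 had a log2 fold change below 0, and 4 did not overlap between diets (78.6% and 28.6%), where 53.8% of all tested genes were below 0 and 8.68% did not overlap. All 15 listed were detected, and they summed to between 349 and 609 TPM on the control diet and between 314 and 481 TPM on PLX5622. The markers Hmox1, Clec1b and Slc40a1 held most of that sum and had close means in both diets, at 135 and 137 TPM for Hmox1. Without overlap between diets were Clec4f, at 23.2 ± 10.8 and 7.91 ± 3.93 TPM, C1qa, at 17.95 ± 1.39 and 8.80 ± 3.89 TPM, C1qb and Csf1r (n = 3 per diet, SD). Lyz2, from the list of monocyte and dendritic cell markers, did not overlap either, at 31.5 ± 9.43 and 10.1 ± 6.36 TPM (n = 3 per diet, SD). Of the 3 tested genes of that list, Lyz2 alone had a log2 fold change below 0. S100a4, at 7.04 ± 4.27 and 11.4 ± 5.25 TPM, and Cst3, at 2297 ± 235 and 2366 ± 54.9 TPM, overlapped between diets (n = 3 per diet, SD). Csf1r, which ADAM proteases also cleave, stood at 7.27 ± 1.35 and 2.87 ± 1.49 TPM (n = 3 per diet, SD). The 12 neutrophil markers summed to between 1.64 and 9.68 TPM on the control diet and between 2.81 and 7.66 TPM on PLX5622, with Ly6g and Mpo listed at 0 in every library. Of the neutrophil markers Csf3r was higher in every PLX5622 library, at 1.43, 0.909 and 1.61 TPM on the control diet against 3.43, 2.14 and 3.27 TPM. The part of either cell type in the values of Mmp25 and Mmp9 was not tested.

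Differences among libraries of one diet exceeded the difference between diets for most members. The absolute log2 fold change was smaller than the within-diet SD in 31 of the 35 tested genes. The share over all tested genes was not counted, so this cannot be called a trait of the set. The median within-diet SD of the members was 0.33 on the log2(TPM + 1) scale. Adam23, a member without catalytic activity that binds integrins and LGI proteins, had the largest within-diet SD, 0.95. It stood at 33.8, 123 and 150.2 TPM on the control diet and at 47.0, 111 and 109 TPM on PLX5622. Replicate 1 of either diet was far below the other 2, and the log2 fold change between diets was -0.05 (95% interval -1.37 to 1.28).

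Adam12, a protease linked to growth factor shedding, was likewise lowest in replicate 1, at 2.61, 8.86 and 8.64 TPM on the control diet and 4.92, 6.94 and 8.80 TPM on PLX5622. So was Adamts7, a protease of the cartilage protein COMP, at 8.66, 17.98 and 23.9 TPM and at 10.9, 17.7 and 16.8 TPM. In all, 9 tested genes were lowest in replicate 1 of both diets: Adam12, Adam23, Adamts7, Adamts10, Adamts14, Mmp11, Mmp14, Timp2 and Timp3. They were 25.7% of the tested members, where 20.3% of all tested genes had that order. Another 8 members were lowest in replicate 2 of both diets and 6 in replicate 3 (22.9% and 17.1%), where all tested genes gave 15.4% and 8.88%. The opposite order was seen in 13 genes that were highest in replicate 1 of both diets, among them Adam15, Adamts1, Adamts4, Adamts5, Adamts9, Mmp28 and Timp1. They were 37.1% of the tested members, against 17.1% of all tested genes. Adamts5, an aggrecanase, stood at 12.5 TPM in control replicate 1 and at 4.79 and 6.37 TPM in control replicates 2 and 3.

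The sums of 2 marker lists differed between the same libraries. The sum of sinusoidal markers was lowest in control replicate 1 and PLX5622 replicate 1, as given above. The sum of large-vessel markers was highest there, at 10300.1 and 9884 TPM, against 6202 to 7480 TPM in the other 4 libraries. Not every marker of that list had this order. Abundant ones such as Vwf and Rspo3 were highest in replicate 1 of both diets, but Efnb2 and Sox17 were lowest there. Of the sinusoidal markers, Fcgr2b was lowest in control replicate 3, at 219 TPM, and highest in PLX5622 replicate 1, at 359 TPM. Hepatocyte markers were highest in control replicate 1, at 4916 TPM, but lowest in PLX5622 replicate 1, at 1356 TPM. Stellate cell and fibroblast markers summed to between 509 and 569 TPM in all 6 libraries, of which Ecm1 alone made up at least 377 TPM. The part of these cell types in the order of the libraries was not tested. Without both replicates numbered 1, 0 of 13739 genes passed, with 780 at an unadjusted p under 0.05 (limma), and Timp2 and Timp3 were again the members with such a p. That comparison was chosen after the data were seen.

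**Figure D4:**
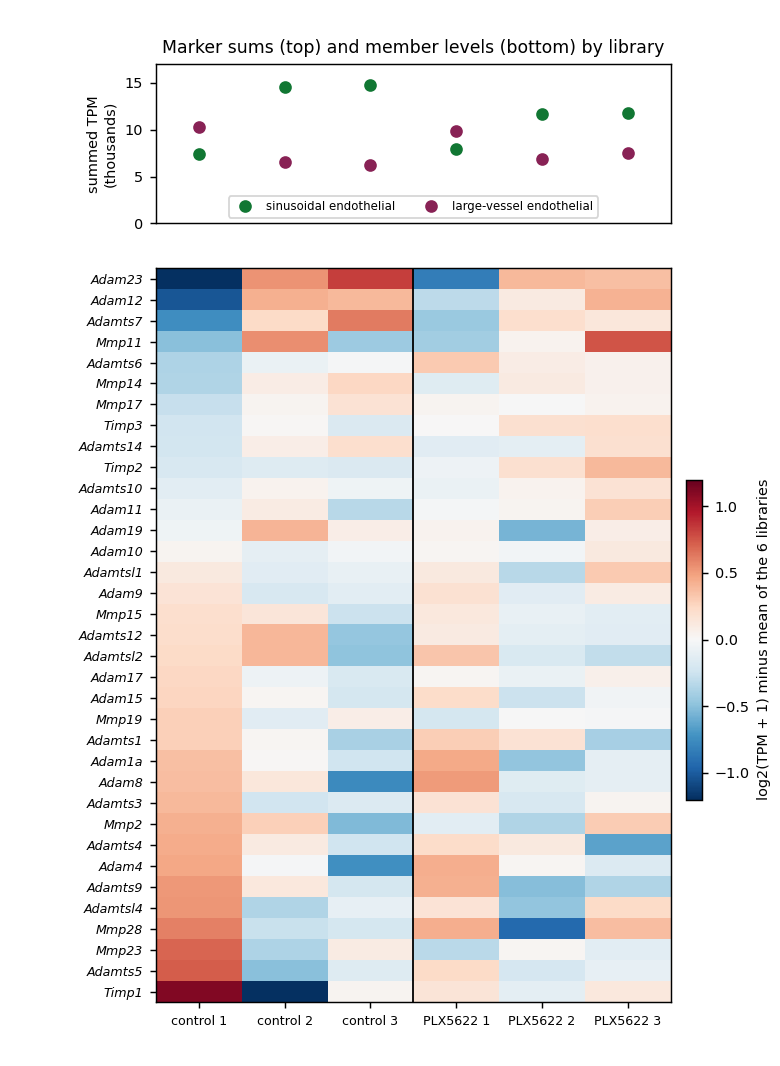
Top: summed TPM of sinusoidal (green) and large-vessel (purple) endothelial markers in each library. Bottom: log2(TPM + 1) of each tested gene minus its mean over the 6 libraries, blue for lower and red for higher, sorted by control replicate 1, with a line between the diets. Adam23, Adam12 and Adamts7 are lowest in replicate 1 of both diets, where the sinusoidal sum is lowest and the large-vessel sum highest.

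By family, the TIMP genes summed to 1458 ± 109 TPM on the control diet and 1759 ± 147 TPM on PLX5622, and the MMP, ADAM and ADAMTS genes together to 2314 ± 257 and 2328 ± 225 TPM (n = 3 per diet, SD). The ratio of TIMP to protease sums was 0.538, 0.682 and 0.688 on the control diet and 0.622, 0.786 and 0.885 on PLX5622, so the diets overlapped. These protease sums include ADAM genes without catalytic activity, Adam23 among them. Timp3 made up 88.6 ± 1.30% and 88.2 ± 0.923% of the TIMP sum (n = 3 per diet, SD), while Adamts1 made up 41.4 ± 5.10% and 42.8 ± 6.93% of the protease sum (n = 3 per diet, SD). Across the 35 tested genes 18 had a log2 fold change above 0 and 17 below, with a median of 0.000913, where all tested genes had a median of -0.02 and 53.8% below 0. The 3 tested TIMP genes were all above 0, as were 7 of 11 ADAM, 4 of 10 ADAMTS, 1 of 3 ADAMTSL and 3 of 8 MMP genes. For Timp1 the direction is not settled, since the authors' deposited table gives -0.21 and its sign turned when libraries were left out.

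**Figure D5:**
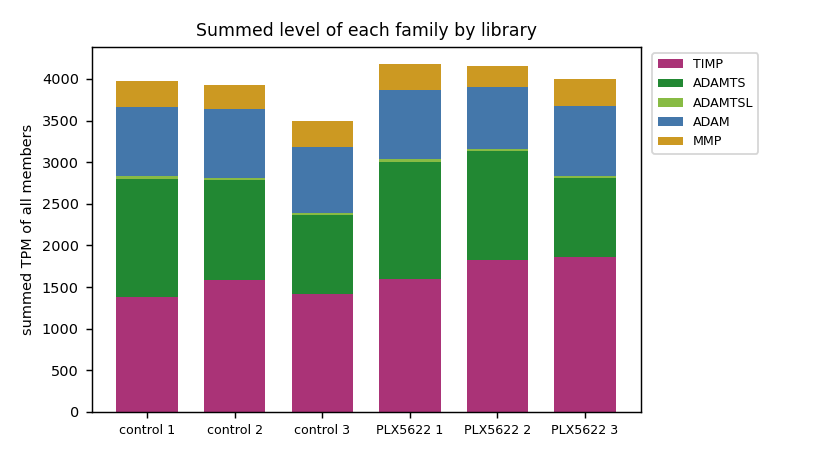
Summed TPM of all members of each family in each library, as stacked bars from 0. The totals lie between 3490 and 4178 TPM, and the TIMP part is 1379 to 1583 TPM in control libraries and 1591 to 1865 TPM in PLX5622 libraries.

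Genes that act with these proteases or are cut by them were read out of the same fit. In all 5 lists 0 genes passed at an adjusted p under 0.05 by limma. Among 14 tested partners of ADAM10 and ADAM17, 5 were above and 9 below 0, with a median of -0.03. The 2 with the smallest p were Tspan14, a tetraspanin that carries ADAM10 to the surface, at 221 ± 22.1 and 258 ± 20.6 TPM (n = 3 per diet, SD), which gave a fold change on the log2 scale of 0.22 (95% interval -0.03 to 0.47), and Pacs2, a sorting protein, at -0.20 (95% interval -0.48 to 0.08). Among 36 tested substrates of ADAM10 and ADAM17, 16 were above and 20 below 0, and 1, Csf1r, had an unadjusted p under 0.05. Its log2 fold change was -1.17 (95% interval -1.95 to -0.38), and that of the growth factor gene Nrg1 was -0.32 (95% interval -0.65 to 0.01). VE-cadherin (Cdh5), at 1221 ± 13.6 and 1161 ± 35.5 TPM (n = 3 per diet, SD), did not overlap between diets. The log2 fold change of Cdh5 was small, at -0.07 (95% interval -0.27 to 0.12). Csf1r, Lrp1 and Cdh5 were the 3 of these 36 substrates without overlap, where 8.68% of all tested genes did not overlap.

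Among 17 tested activators and surface regulators of MMPs, 9 were above and 8 below 0, and 0 had an unadjusted p under 0.05 by limma. The smallest p belonged to Lrp1, an endocytic receptor that clears proteases and their complexes, at a log2 fold change of -0.45, with -0.99 to 0.09 as its 95% interval, and A2m, a general protease trap, at 0.44 (95% interval -0.11 to 0.99). Among 13 tested substrates and cofactors of ADAMTS proteases, 6 were above and 7 below 0, and 0 had an unadjusted p under 0.05 by limma. Vegfc, the lymphatic growth factor whose precursor ADAMTS3 cleaves, was at 0.35 (95% interval -0.02 to 0.72), and Comp, a substrate of ADAMTS7, at 1.06 (95% interval -0.07 to 2.19).

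Of the 20 tested MMP substrates of the basement membrane and stroma, 6 were above and 14 below 0, with a median of -0.09, where 53.8% of all tested genes were below 0. An unadjusted p under 0.05 by limma was seen in 4 of them, against the 3.34% of all tested genes given above. All 4 were lower on PLX5622 and did not overlap between diets, where 8.68% of all tested genes did not overlap. These were the collagen IV chains Col4a1, at 647 ± 109 and 479 ± 13.7 TPM, and Col4a2, at 371 ± 68.0 and 278 ± 1.29 TPM, the laminin chain Lama5, at 95.3 ± 7.19 and 76.4 ± 10.7 TPM, and perlecan (Hspg2), at 484 ± 49.2 and 391 ± 45.7 TPM (n = 3 per diet, SD). Their log2 fold changes were -0.42, -0.40, -0.32 and -0.31 in that order, with an adjusted p of 0.99998 by limma for each. The list was chosen with earlier results of these data known, and its counts were not tested.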

How the data were processed

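RNA was measured in 6 libraries, 3 per diet, grouped and numbered by the sample titles. Per the labels' protocols, polyadenylated RNA was used and the libraries do not keep strand. Per the submitters' processing notes the tools were STAR 2.7.10a, featureCounts, Subread 2.0.1, DESeq2 1.32.0 and R 4.1.0 with the build mm39. The authors deposited TPM for 26264 genes, each library summing to 1000000, which removes depth. The authors also deposited a DESeq2 comparison with a mean normalized count (a signal pooled over all libraries), a log2 fold change with its standard error, a Wald score, and p-values with and without adjustment. Its sign was the same as that of the TPM fold changes in 95.5% of 13470 shared genes.

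The 13739 genes averaging 1 TPM or more (12525 were left out) were fitted on log2(TPM + 1), a pseudocount that understates changes of low genes, with limma 3.58.1 in R 4.3.3, an intensity trend and Benjamini-Hochberg adjustment over all tested genes at 0.05. Intervals are 95% intervals of that fit. Reads per gene were recovered from TPM and the deposited mean normalized counts. All values below 50 reads (100%) then fell within 0.05 of whole numbers. Read numbers cover counting error only. The fit and the recovery were tested on simulated data. There the fit called 17.1% of changes of 1.5-fold and 41.4% of changes of 2-fold. A gene that did not pass can therefore still have changed by such an amount. The p-values set the difference between diets against the spread of these libraries within a diet.

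Members and lists were chosen with earlier results of these data known. Genes named are the most abundant members per family, those with an unadjusted p under 0.05 or no overlap, the 5 largest changes per direction, a fixed set with Adam10, Adam17, Mmp2, Mmp9 and the TIMP genes, the 5 most abundant members below the filter, and the 2 with the smallest p per related list. Mmp25, Mmp20, Adam2, Adam3, Adam12, Adam18, Adamts5, Adamts14, Clec4f, C1qa, C1qb, Hmox1, Clec1b, Slc40a1, Lyz2, Csf3r, Cdh5, Lama5 and Hspg2 were named after their values were seen. So were S100a4, Cst3, Efnb2, Sox17 and Fcgr2b. Alternatives were other pseudocounts, filters, scalings, variance models and library weights, a block by replicate number, voom on the recovered reads and leaving out libraries. RefSeq promoter entries (GRCm38.p6) were found for 54 of 85 members. Not every gene that overlaps a member is reported here.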

Additional observations from a re-analysis of the deposited data

How the results depend on the processing

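Under 18 alternative settings limma passed 0 genes and 0 members, with 304 to 847 genes at an unadjusted p under 0.05. Among these settings, voom on the recovered reads gave 403 such genes. The number of tested members below 0 was 17 of 35. It became 11 of 22 when the filter was raised to 5 TPM and 32 of 63 with no filter, by the number of genes tested, and was between 12 and 21 when libraries were left out. The median log2 fold change of the members, 0.000913, lay between -0.09 and 0.08 when libraries were left out. The deviations of same-numbered libraries from their diet means correlated at 0.196, 0.136 and 0.0873, and each library correlated best with its own number, but not every value was over 0.1, so the numbers were not used as pairs. With the replicate block 0 genes passed, with 821 at an unadjusted p under 0.05 and a smallest adjusted p of 0.378 (limma). In that fit Timp2 and Timp3 had an unadjusted p of 0.0144 and 0.0176 and an adjusted p of 0.817 for both (limma).

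Of 27 named fold changes, 9 kept their sign under every setting: Adam9, Adam10, Adam11, Adam19, Adamts6, Adamts9, Adamts10, Timp2 and Timp3. With library weights the log2 fold changes of Adam15 (0.02), Adamtsl4 (0.08), Mmp2 (0.02), Mmp15 (0.00) and Mmp28 (0.07) turned positive and that of Mmp14 (-0.09) negative. In that setting control replicate 1 had a weight of 0.452, and the other libraries had 1.04 to 1.44. Control replicate 1 was the highest control library for Adam15, Adamtsl4, Mmp2, Mmp15 and Mmp28 and the lowest for Mmp14. Why that library differed was not tested. When libraries were left out, the fold changes whose sign turned ranged as follows. The values were, for Adam15, from -0.17 to 0.07, Adam17 from -0.09 to 0.12, Adam23 from -0.71 to 0.35, Adam8 from -0.17 to 0.40, Adamts1 from -0.13 to 0.26, Adamts4 from -0.38 to 0.07 and Adamts7 from -0.46 to 0.23. Those of ADAMTS-like and further MMP genes were, for Adamtsl1, from -0.07 to 0.25, Adamtsl2 from -0.36 to 0.08, Adamtsl4 from -0.24 to 0.20, Mmp11 from -0.06 to 0.60, Mmp14 from -0.16 to 0.14, Mmp15 from -0.21 to 0.03 and Mmp19 from -0.26 to 0.02. The remaining ranges were, for Mmp2, from -0.42 to 0.09, Mmp23 from -0.54 to 0.08, Mmp28 from -0.33 to 0.36 and Timp1 from -0.52 to 0.70.

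With 14517959 to 32732212 reads recovered per library over the genes of the deposited comparison, members below a mean of 1 TPM differed in their read numbers. Among those with recovered reads, Timp4 had 0 reads in control replicate 2 and Adamts2 had 120 in control replicate 1.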
